A study of Mus musculus with 19 samples.

Results

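Mammary tumours labelled as lacking both beta1 and beta3 integrin were compared with tumours labelled as lacking beta1 integrin alone. Members were chosen by the genotype label: 6 arrays labelled double knockout and 4 labelled Itgb1 knockout, 10 of the 19 arrays of the series. The Itgb1 knockout tumours had the genotype NIC itgb1 fl/fl, and the tumours labelled double knockout had the same genotype with itgb3 fl/fl added. NIC is a transgene in which the mouse mammary tumour virus (MMTV) promoter drives an activated ErbB2 receptor together with Cre recombinase. Both groups therefore share the ErbB2 driver, Cre and the floxed Itgb1 alleles, and by their labels differ in floxed Itgb3. The other 9 arrays were 5 tumours with intact integrins (NIC WT) and 4 Itgb3 knockouts (NIC itgb3 fl/fl). They enter here through the shared estimate of the spread, as levels beside a result and, at the end, as a second background for the Itgb3 label. Tumours were taken at end burden and flash frozen, and the age of the mice was not given. Cre is made in the mammary epithelium, so fibroblasts, vessels and blood cells keep their integrin genes, and each array measured RNA of a whole tumour. In such bulk samples fewer cells of a type and less RNA per cell cannot be told apart. Each array has a tumour title of its own. The labels do not say whether the tumours came from separate animals, so p-values reflect the variation among these tumours, which may not be that among animals.

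Integrins are pairs of an alpha and a beta subunit that tie cells to the extracellular matrix and pass signals inward through focal adhesions. The beta1 subunit pairs with most of the alpha chains that bind collagen, laminin and fibronectin, while beta3 forms the vitronectin receptor with alpha v and the platelet fibrinogen receptor with alpha IIb. In mammary epithelium beta1 integrins hold cells to the basement membrane, and beta3 is known from remodelling vessels, platelets and invasive tumour cells.

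Levels are the deposited normalised log2 intensities, so a difference of 1 is a doubling of the signal. Differences are the tumours labelled double knockout minus the Itgb1 knockouts. They were tested with limma over 14231 genes, and a gene passed at a Benjamini-Hochberg adjusted p of 0.05. Array medians ran from 4.32 to 4.48. For the 10 arrays compared, the median correlation of an array with all others of the 19 was 0.944 to 0.970. The tissue label was borne out by epithelial markers: the adhesion molecule gene Epcam ran from 11.15 to 11.29 in the tumours labelled double knockout and from 11.25 to 11.60 in the Itgb1 knockouts. Of the basal markers, Krt14 reached at most 3.85 on any of the 19 arrays and Trp63 at most 4.48, close to or under the intensity filter of 4.38.

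The gene by which the labels differ, Itgb3, was not lower in the tumours labelled double knockout. Its level was 8.15, 8.98, 7.92 and 7.90 in the 4 Itgb1 knockouts, and the lowest, median and highest of the 6 tumours labelled double knockout were 7.69, 8.20 and 8.55. The groups overlapped over nearly the whole range. The means were 8.24 ± 0.51 (SD, n = 4) and 8.13 ± 0.39 (SD, n = 6), a difference of −0.10 (SE 0.244, exact two-sided permutation p = 0.743, limma adjusted p = 0.904). Without Itgb1 knockout replicate 2, the tumour at 8.98, the difference was 0.15 (exact permutation p = 0.512). In the Itgb3 knockouts the same probe set was 6.34, 7.31, 6.97 and 7.40, all below the lowest tumour labelled double knockout. Its mean there was 7.01, beside 8.12 in tumours with intact integrins. That difference was −1.12 (limma unadjusted p = 0.000317, adjusted p = 0.723). Between the groups compared no fall in Itgb3 was seen. All arrays, those of the Itgb3 knockouts included, measured RNA of whole tumours, to which cells that keep the gene contribute. Whether the gene was lost in the epithelium was not tested. Each direction below is between tumours carrying these labels.

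Itgb1, deleted by label in both groups, was 8.39, 8.52, 8.98 and 8.91 in the Itgb1 knockouts and 7.93, 8.15 and 9.20 (lowest, median, highest) in the tumours labelled double knockout. Of these 6, 4 lay below every Itgb1 knockout and 1, replicate 5, lay above them all. The difference was −0.38 (SE 0.204, exact two-sided permutation p = 0.2, 0.4 after adjustment over both genes, limma adjusted p = 0.463). Without labelled double knockout replicate 5 it was −0.56 (exact permutation p = 0.0238). With 210 splits of 4 and 6 tumours the smallest p such a test allows is 0.00476. Tumours with intact integrins had a mean Itgb1 level of 10.16, above all 10. Erbb2, the endogenous gene of the tumour driver, differed by 0.16 (SE 0.184, limma adjusted p = 0.768), and by −0.01 without Itgb1 knockout replicate 4.

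**Figure D1:**
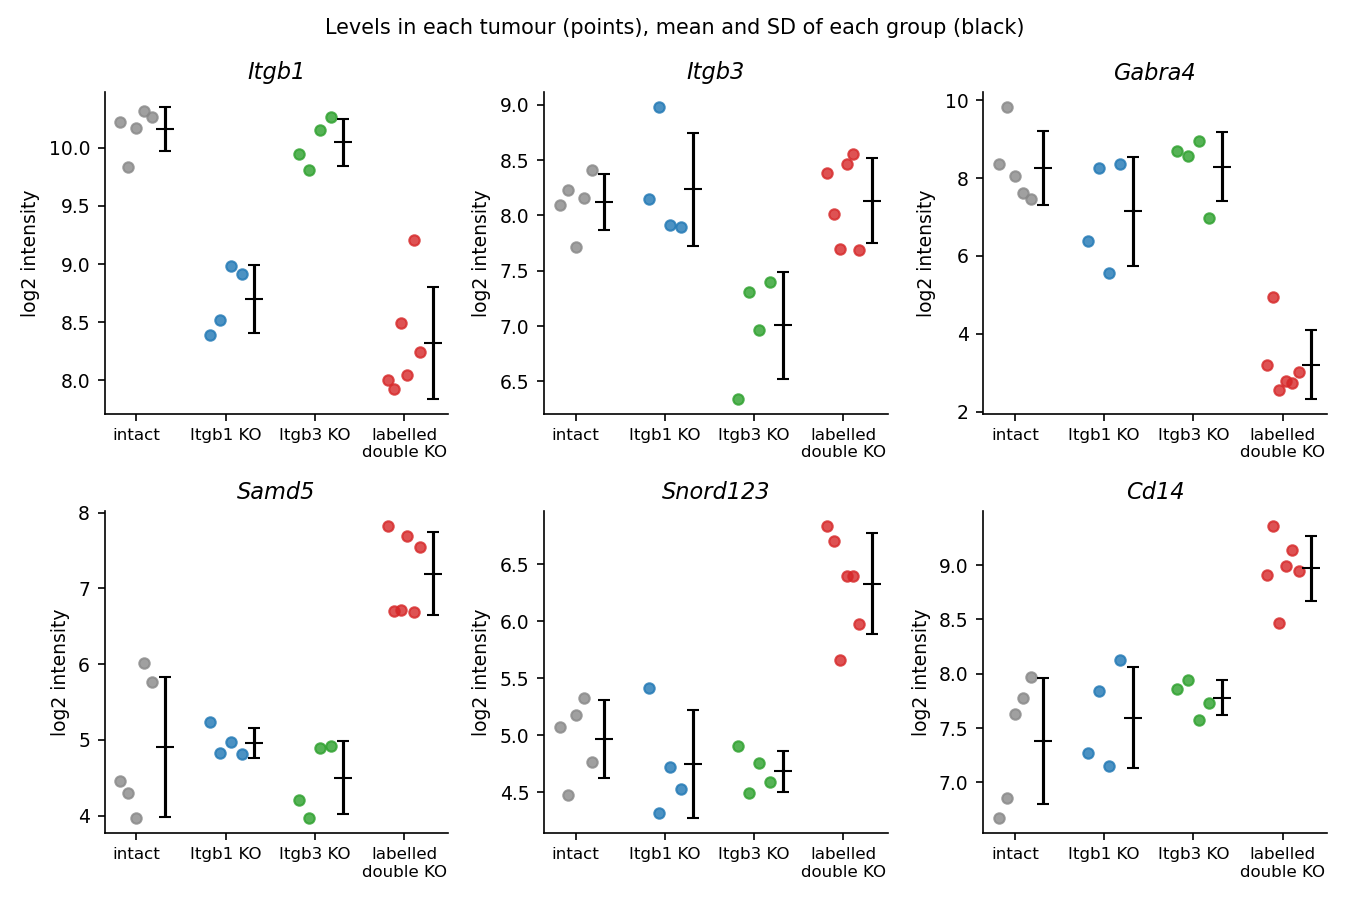
Log2 levels of 6 genes (vertical axes) in each tumour of the 4 groups (horizontal axis); points are tumours and black bars the mean and SD of each group. Itgb3 overlaps between the Itgb1 knockouts and the tumours labelled double knockout, while all 6 of the latter lie below the Itgb1 knockouts for Gabra4 and above them for Samd5.

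The 2 groups differed in few genes beyond the threshold: 3 of 14231 (0.0211%), with Samd5 and Snord123 higher (0.0141%) and Gabra4 lower (0.00703%) in the tumours labelled double knockout. At an unadjusted p under 0.05 there were 1744 genes (12.3%), where 711.55 are expected by chance. Of these, 1034 were higher (7.27%) and 710 lower (4.99%). All 6 tumours labelled double knockout lay above all 4 Itgb1 knockouts for 224 genes (1.57%) and below them for 159 (1.12%), and 51.1% of genes had a difference above 0.

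Gabra4 encodes the alpha4 subunit of the GABA-A receptor, a chloride channel known from neurons. Its level was 6.37, 8.25, 5.57 and 8.37 in the Itgb1 knockouts. In the tumours labelled double knockout the lowest, median and highest were 2.56, 2.90 and 4.94, and 5 of the 6 lay under the intensity filter. No tumour of one group reached the range of the other, although the Itgb1 knockouts themselves spread widely. Gabra4 fell by 3.93 (SE 0.593, limma adjusted p = 0.0185). With values under the filter raised to it the difference was −2.67 (adjusted p = 0.0706), so neither its size nor its call is exact. The mean was 8.26 in tumours with intact integrins and 8.29 in the Itgb3 knockouts.

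Few other subunits of the receptor could be measured: 3 of 16 GABA-A subunit genes passed the filter. Gabrp, the pi subunit found in epithelia, differed by 0.93 (SE 0.490, adjusted p = 0.455), with all 6 tumours labelled double knockout (10.46 to 11.57) above the Itgb1 knockouts (9.47 to 10.42). Gabrd, the delta subunit, was near the filter in both groups and differed by −0.08. The 6 measured genes nearest Gabra4 on chromosome 5 differed by −0.23 to 0.03, so the low value did not extend to these genes. Kctd8, among them, was under the filter in 4 tumours labelled double knockout and 3 Itgb1 knockouts. Nearby genes that did not pass the filter were not assessed.

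Samd5 codes for a sterile alpha motif protein, and such motifs are known to join proteins. It was 5.23, 4.82, 4.97 and 4.81 in the Itgb1 knockouts and 6.69, 7.13 and 7.82 (lowest, median, highest) in the tumours labelled double knockout, with no overlap. Samd5 rose by 2.24 (SE 0.363, 4.71-fold, limma adjusted p = 0.0327). Its mean was 4.90 in tumours with intact integrins and 4.50 in the Itgb3 knockouts. Of its neighbours on chromosome 10, Ust, a sulfotransferase gene, differed by 0.68 (adjusted p = 0.361) and Sash1, which encodes a scaffold protein, by 0.56 (adjusted p = 0.255). The other 4 of its 6 nearest measured genes, Tab2, Stxbp5, Rab32 and Shprh, differed by −0.10 to 0.06.

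Snord123 is a small nucleolar RNA gene, named after its values were seen. Its levels were 5.42, 4.32, 4.72 and 4.53 in the Itgb1 knockouts against 5.66, 6.40 and 6.83 (lowest, median, highest). Every tumour labelled double knockout was higher than every Itgb1 knockout, and Snord123 rose by 1.58 (SE 0.231, 2.99-fold, limma adjusted p = 0.0185). Among the measured genes nearest it on chromosome 15, Snhg18 differed by 0.87 (adjusted p = 0.250, all 6 above). Sema5a, which encodes a semaphorin, differed by 1.48 (adjusted p = 0.142, 4 of 6 above). Whether the Snhg18 signal is separate from that of Snord123 was not tested. The other 4 of its 6 nearest measured genes had lower or similar values: Sdc2, a syndecan gene, differed by −0.65 (adjusted p = 0.380), Cpq by −0.31, Atpsckmt by 0.06 and Cct5 by 0.15.

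These calls depended on which tumours were included. No gene passed without labelled double knockout replicate 1 or 4 or Itgb1 knockout replicate 2 or 4, where the adjusted p of the 3 genes ran from 0.0567 to 0.132. Without Itgb1 knockout replicate 3 only Gabra4 passed. In the other direction 15 genes passed without Itgb1 knockout replicate 1, 24 without labelled double knockout replicate 5 and 8 without replicate 6. The 3 genes kept their direction in each case. In a fit on the compared groups alone 7 genes passed, but not Gabra4 (adjusted p = 0.0522) or Snord123 (0.0795). With fibroblast and adipocyte covariates no gene passed (adjusted p = 0.133 for all 3), and with array weights 33 did, 26 of them higher.

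Among the genes with the smallest p on the higher side, 7 did not pass but had all 6 tumours labelled double knockout above all 4 Itgb1 knockouts. Cd14 encodes the co-receptor for bacterial lipopolysaccharide. Its levels were 7.27, 7.84, 7.15 and 8.12 in the Itgb1 knockouts and 8.47, 8.97 and 9.36 (lowest, median, highest) in the others, a difference of 1.37 (SE 0.245, 2.59-fold, limma adjusted p = 0.0767). Slc22a23, a gene of the organic ion transporter family, was 5.58, 4.67, 5.12 and 4.83 against 5.95, 6.71 and 7.28, a difference of 1.61 (SE 0.293, adjusted p = 0.0789). Il18r1, which encodes the interleukin 18 receptor, differed by 2.61 (SE 0.505) and Cpm, a membrane carboxypeptidase gene, by 3.11 (SE 0.610), both with an adjusted p of 0.0851. These were the largest differences among the genes named on this side. The protein kinase C alpha gene Prkca (1.20), Dcaf7, a WD repeat adaptor gene (0.73), and Pfkl, the liver type phosphofructokinase gene of glycolysis (0.62), had the same adjusted p.

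On the lower side most differences were smaller. Serpini1, which encodes the protease inhibitor neuroserpin, was 5.43, 7.59, 8.04 and 7.07 in the Itgb1 knockouts and 2.83, 4.38 and 5.66 in the tumours labelled double knockout, where 5 of 6 were below. Its difference was −2.70 (SE 0.605, limma adjusted p = 0.0946), and 3 of those 6 tumours were under the filter. The mean of Serpini1 was 4.62 in tumours with intact integrins, near the 4.33 of the tumours labelled double knockout. It was 7.03 in the Itgb1 knockouts and 6.32 in the Itgb3 knockouts. Alg6, a glucosyltransferase gene of N-glycosylation (−0.80, adjusted p = 0.0868), and Dhtkd1, a mitochondrial dehydrogenase gene (−0.60, 0.0946), lay below in all 6 tumours. So did Bod1, a gene of chromosome alignment in mitosis (−0.57, adjusted p = 0.0851), and Elmo1, which encodes a regulator of Rac (−0.50, 0.0903). Slc38a9, a lysosomal amino acid sensor gene (−0.48, adjusted p = 0.0996), and Cdkal1, a tRNA modification gene (−0.46, 0.0851), completed this side.

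**Figure D2:**
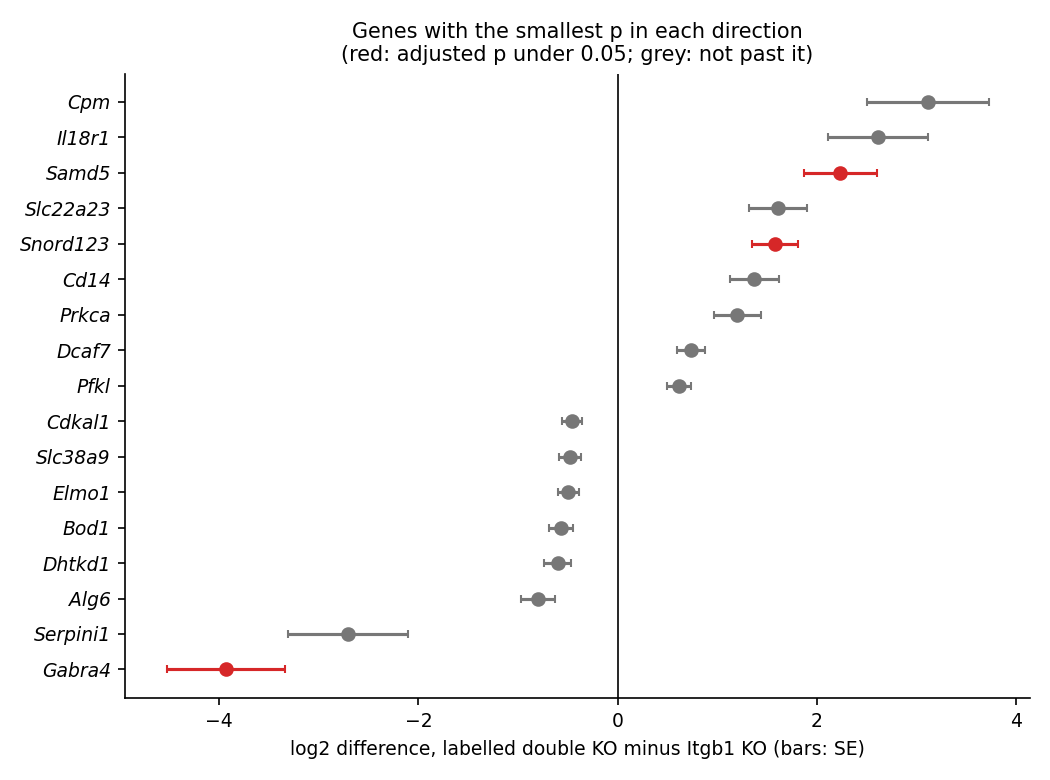
Log2 difference (horizontal axis, tumours labelled double knockout minus Itgb1 knockouts) of the genes with the smallest p in each direction, with SE bars; red points passed the adjusted p of 0.05. Gabra4 at −3.93, Samd5 at 2.24 and Snord123 at 1.58 passed, and the other genes, from Serpini1 at −2.70 to Cpm at 3.11, did not.

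Genes induced by interferon had the lowest median of the 38 lists. Type I interferon is known to switch on antiviral genes in the cells it reaches. Of 28 listed genes 25 were measured, 0 of them had a difference above 0 (51.1% of all genes), and their median was −1.12 beside 0.01 over all genes. None passed in limma (smallest adjusted p = 0.142), while 12 had an unadjusted p under 0.05 on the lower side, where 4.99% of all genes did. Promoters of 4 of these 12, the members with the smallest p among those that hold the motif, are shown because they carry the element through which such genes are known to respond. The sequences are from RefSeq (GRCm38.p6), 5′ to 3′ on the strand of the gene. Capitals mark the motif GAAANNGAAA, searched on both strands, with overlapping matches joined.
Rsad2 (chr12:26456518-26456617, minus strand): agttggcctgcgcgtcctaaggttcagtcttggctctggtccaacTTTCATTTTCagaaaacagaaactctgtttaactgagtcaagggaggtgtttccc
Ifit1 (chr19:34640759-34640858, plus strand): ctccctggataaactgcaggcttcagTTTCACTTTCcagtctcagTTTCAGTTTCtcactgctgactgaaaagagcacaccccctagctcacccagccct
Isg15 (chr4:156200830-156200929, minus strand): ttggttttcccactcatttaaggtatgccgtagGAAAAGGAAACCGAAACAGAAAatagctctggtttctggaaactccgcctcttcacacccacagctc
Bst2 (chr8:71537542-71537641, minus strand): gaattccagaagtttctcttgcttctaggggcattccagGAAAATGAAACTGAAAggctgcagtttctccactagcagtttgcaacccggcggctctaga
The nearest match began 120, 85, 66 and 124 bases before the start in Rsad2, Ifit1, Isg15 and Bst2. Within 250 bases before the start the motif was found in 8 of the 17 measured interferon genes with a promoter in the table (47.1%), and in 347 of 11097 tested genes (3.13%). A match describes the letters and is not a measured binding site.

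The receptor transporter gene Rtp4 led the interferon genes. It was 9.19, 10.91, 10.33 and 10.20 in the Itgb1 knockouts and 7.18, 8.43 and 9.70 (lowest, median, highest) in the tumours labelled double knockout, a difference of −1.66 (SE 0.436, limma adjusted p = 0.142). Here 4 of the 6 tumours lay below every Itgb1 knockout. Mx2, an antiviral GTPase gene, was 4.88, 7.07, 6.39 and 6.69 against 3.65, 4.61 and 5.62 (−1.64, SE 0.472, adjusted p = 0.176). Irf9, an interferon regulatory factor gene, differed by −0.86 (SE 0.265, adjusted p = 0.204).

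Of the genes whose promoters are shown, Rsad2, which encodes the antiviral enzyme viperin, was 6.60, 8.13, 6.91 and 7.66 against 5.54, 6.04 and 6.97 (−1.19, SE 0.397, adjusted p = 0.231), with 5 of 6 tumours below. Ifit1, whose product binds viral RNA, was 6.71, 9.87, 8.48 and 8.81 against 5.22, 6.44 and 8.24 (−1.78, SE 0.719, adjusted p = 0.318). Isg15, a ubiquitin-like modifier gene, was 6.89, 8.60, 7.93 and 8.62 against 6.44, 6.79 and 7.38 (−1.15, SE 0.512, adjusted p = 0.374). In each of these genes Itgb1 knockout replicate 1 was the lowest of its group and overlapped the tumours labelled double knockout. Bst2, the tetherin gene, had the same order, with 6.53 in that tumour, 7.35 to 8.72 in the other Itgb1 knockouts and 5.21 to 7.33 in the tumours labelled double knockout (−1.43, SE 0.640, adjusted p = 0.380).

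Averaged over the list and set against the Itgb1 knockout mean, the 4 Itgb1 knockouts stood at −0.94, 0.89, −0.16 and 0.21 and the others between −1.81 and −0.25. Of the 6 tumours 3 lay below every Itgb1 knockout. On the same scale tumours with intact integrins ran from −0.67 to 1.29 and the Itgb3 knockouts from −0.98 to 0.74. Between these other groups, Itgb3 knockouts minus intact tumours, 2 of the 25 genes were above 0 and the median was −0.30. Without Itgb1 knockout replicate 2, the highest tumour, the median of the list was −0.73. Antigen processing genes of MHC class I, many of which interferon also induces, had 1 of 10 measured members above 0 and a median of −0.45. None passed. The peptidase gene Erap1 differed by −0.28 (adjusted p = 0.304) with all 6 tumours below, and the light chain gene B2m by −0.48 (adjusted p = 0.412). The motif was in 1 of the 8 promoters of these genes in the table (12.5%).

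No integrin subunit gene passed, and most had higher values. Of 8 measured beta subunit genes, Itgb1 and Itgb3 among them, 5 had a difference above 0 (median 0.20, or 0.12 without labelled double knockout replicate 2 and 0.13 without replicate 5), and of 16 alpha subunit genes 13 (median 0.20). Itgb4, the partner of alpha6 in the hemidesmosome laminin receptor, was 8.17, 7.74, 8.05 and 7.82 in the Itgb1 knockouts and 7.92, 8.86 and 9.31 in the tumours labelled double knockout (0.82, SE 0.211, limma adjusted p = 0.142). Replicate 5 was the 1 tumour of the 6 within the range of the Itgb1 knockouts. Itga2, of the collagen receptor, differed by 0.57 (adjusted p = 0.229) and Itgal, of the leukocyte receptor LFA-1, by 0.51 (adjusted p = 0.261). Itga6, the partner of Itgb4, differed by −0.20 (adjusted p = 0.654).

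Matrix ligands of integrins had mostly higher values. Collagen and laminin genes had 16 of 18 above 0 (median 0.28) and none passed. Lamb1, the laminin beta1 chain gene, was 6.58, 6.07, 6.20 and 6.31 against 6.72, 6.83 and 7.10, with all 6 tumours above (0.58, SE 0.169, limma adjusted p = 0.178). The collagen IV chain genes Col4a2 (0.70, adjusted p = 0.158) and Col4a1 (0.58, adjusted p = 0.323) had 5 of 6 tumours above. Ligands with the RGD motif had 11 of 15 above 0 (median 0.19). Mfge8, which encodes milk fat globule protein, was 8.55, 9.22, 8.72 and 8.91 against 8.62, 10.75 and 11.33 (1.53, SE 0.509, adjusted p = 0.231), and the tenascin C gene Tnc differed by 1.26 (SE 0.487, adjusted p = 0.302). In both genes 1 of the 6 tumours lay within or below the range of the Itgb1 knockouts. The median of the RGD list was 0.36 without Itgb1 knockout replicate 1 and 0.12 without labelled double knockout replicate 1.

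Focal adhesion genes had 20 of 26 above 0 and a median of 0.15. Although small, the mean of this list was higher in all 6 tumours labelled double knockout (0.09 to 0.26) than in the Itgb1 knockouts (−0.06 to 0.05). Of all the lists examined only this one separated the groups, and whether that exceeds chance was not tested. In tumours with intact integrins the mean ran from −0.23 to 0.19, which overlaps the tumours labelled double knockout. Git1, a scaffold gene of adhesion turnover, was 8.07, 7.88, 8.19 and 8.47 against 8.50, 8.71 and 8.95 (0.57, SE 0.136, limma adjusted p = 0.115). Vasp, of actin filament growth, differed by 0.30 (adjusted p = 0.319), and both genes had all 6 tumours above. Fermt2, the kindlin-2 gene of integrin activation, differed by −0.34 (adjusted p = 0.393). It lay below every Itgb1 knockout in 5 of 6 tumours, and is named after its values were seen.

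Among epithelial genes, basal and myoepithelial genes had 9 of 10 above 0 and a median of 0.41, the highest of the lists, and none passed. The Notch ligand gene Jag1 was 5.23, 5.15, 4.62 and 5.15 in the Itgb1 knockouts and 5.73, 6.03 and 6.42 in the tumours labelled double knockout, without overlap (1.03, SE 0.212, limma adjusted p = 0.0851). Dsg3, a desmosome cadherin gene, differed by 1.44 (SE 0.417, adjusted p = 0.178). Cdh3, the P-cadherin gene, differed by 0.35 (adjusted p = 0.386). Since Krt14 and Trp63 were near or under the filter, these values are not a count of basal cells.

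Luminal genes had 11 of 17 above 0 (median 0.19, or 0.12 without Itgb1 knockout replicate 1 and 0.13 without labelled double knockout replicate 5). Elf3, an epithelial transcription factor gene, was 6.29, 5.75, 5.19 and 6.12 against 6.73, 7.10 and 7.98, with all 6 above (1.38, SE 0.320, limma adjusted p = 0.106). Aldh1a3, which makes retinoic acid, differed by 0.94 (adjusted p = 0.106), the claudin gene Cldn7 by 0.49 (adjusted p = 0.251) and Krt8, a keratin of luminal cells, by 0.46 (adjusted p = 0.242). Epcam differed by −0.17 (adjusted p = 0.461). Milk protein and secretory genes had 4 of 13 above 0 (median −0.15), with the alpha-lactalbumin gene Lalba at −1.49 (SE 0.905, adjusted p = 0.531) and a range of 6.40 to 12.06 in the tumours labelled double knockout. With single tumours left out Lalba ran from −2.19 to −0.78, the latter without labelled double knockout replicate 6. The median of the list was −0.30 without Itgb1 knockout replicate 1 and −0.08 to −0.10 without any other Itgb1 knockout or without labelled double knockout replicate 2 or 4.

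Ligands and receptors of the ErbB family had differences of both signs, with 6 of 12 above 0 (median 0.03, from −0.03 to 0.11 with single tumours left out) and none past the threshold. The EGF receptor ligand genes Tgfa (0.58, SE 0.187, limma adjusted p = 0.223) and Hbegf (0.95, SE 0.308, 0.225) had higher values, Hbegf in all 6 tumours. Egf and Erbb4 are named after their values were seen. The ligand gene Egf was 6.50, 6.16, 7.65 and 7.91 in the Itgb1 knockouts and 4.05, 5.12 and 6.16 in the tumours labelled double knockout (−1.95, SE 0.582, adjusted p = 0.189), with all 6 below. Erbb4, a receptor of luminal differentiation, was 6.90, 7.22, 7.49 and 7.34 against 5.50, 5.83 and 6.91 (−1.24, SE 0.281, adjusted p = 0.101), with 5 of 6 below. Erbb3, the dimer partner of ErbB2, differed by 0.16 (adjusted p = 0.759).

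Other growth and signalling genes differed by small amounts as lists. Insulin and IGF pathway genes had 13 of 18 above 0 (median 0.15, or 0.27 without Itgb1 knockout replicate 1 and 0.10 without replicate 4), led by the IGF binding protein gene Igfbp4 (0.84, SE 0.210, limma adjusted p = 0.140, 5 of 6 above). TGF-beta and BMP genes had 16 of 23 above 0 (median 0.23), with the ubiquitin ligase gene Smurf2 at 0.42 (adjusted p = 0.165). YAP and TAZ targets had 12 of 15 (median 0.27), led by the matricellular gene Ccn2 at 0.57 (adjusted p = 0.321). Notch genes beside Jag1 included Notch2 at 0.38 (adjusted p = 0.231), and the list had 11 of 14 above 0 (median 0.12, or 0.05 without Itgb1 knockout replicate 4). In the Wnt list (17 of 22, median 0.12) Wnt5a, a non-canonical ligand gene, was 5.13, 4.30, 4.44 and 4.60 against 5.02, 5.53 and 6.01 (0.88, SE 0.189, adjusted p = 0.0903). Wnt5a also led the mesenchymal transition genes, of which 12 of 13 were above 0 (median 0.30, or 0.46 without labelled double knockout replicate 5 and 0.18 without Itgb1 knockout replicate 3).

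Cell cycle genes had 8 of 27 above 0 and a median of −0.13, with the replication clamp gene Pcna at −0.36 (adjusted p = 0.392) and the proliferation marker gene Mki67 at −0.36 (adjusted p = 0.607). Their mean in the tumours labelled double knockout ran from −0.65 in replicate 5 to 0.26 in replicate 4, across the whole range of the Itgb1 knockouts (−0.26 to 0.18). Without replicate 5 the median was −0.00, and without Itgb1 knockout replicate 2 it was −0.21. Glycolysis and hypoxia genes had 19 of 22 above 0 (median 0.15), with Pfkl first and the hexokinase gene Hk2 at 0.48 (adjusted p = 0.380). Leaving out Itgb1 knockout replicate 1 gave a median of 0.34, and leaving out replicate 3 gave 0.08. Targets of p53 had 13 of 16 above 0 (median 0.13), with Phlda3 at 0.60 (adjusted p = 0.162). Fatty acid synthesis genes were split (8 of 15, median 0.07, from −0.03 to 0.11 with single tumours left out), with the synthase gene Fasn at 0.56 (adjusted p = 0.288). The desaturase gene Scd1, named after its values were seen, was at −0.55 (adjusted p = 0.231), below in all 6 tumours.

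Markers of other cell types stood beside these differences, and their part in the results was not tested. Pericyte and smooth muscle markers had 9 of 12 above 0 (median 0.30), with the potassium channel gene Kcnj8 at 1.20 (SE 0.329, limma adjusted p = 0.158) and the myosin kinase gene Mylk at 0.57 (adjusted p = 0.193). Their mean ran from 0.11 to 0.71 in the tumours labelled double knockout and from −0.20 to 0.32 in the Itgb1 knockouts. Endothelial markers had 13 of 14 above 0 (median 0.15), with group ranges of −0.17 to 0.48 and −0.12 to 0.24. Their median was 0.26 without Itgb1 knockout replicate 1 and 0.25 without labelled double knockout replicate 5. Fibroblast markers had 10 of 15 (median 0.21), and their mean ran from −0.97 in labelled double knockout replicate 5 to 0.75 in replicate 2, around −0.30 to 0.27 in the Itgb1 knockouts. This median was −0.00 without replicate 2 and 0.35 without replicate 5.

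The means of the immune lists overlapped between the groups. Macrophage markers had 11 of 14 above 0 (median 0.24, or 0.16 without labelled double knockout replicate 1 and 0.41 without replicate 4). Adgre1, a surface receptor gene of macrophages, differed by 0.45 (adjusted p = 0.343), and the means ran from −0.35 to 0.67 against −0.11 to 0.12. Of the lipopolysaccharide sensing and acute phase genes 7 of 11 were above 0 (median 0.17), and Tlr4, the receptor that Cd14 serves, differed by 0.73 (SE 0.210, adjusted p = 0.173) with all 6 tumours above. T and NK cell markers had 6 of 7 above 0 (median 0.29, or 0.19 without Itgb1 knockout replicate 1, none at an unadjusted p under 0.05), and the natural killer marker Ncr1 and the B cell markers Cd79a and Ms4a1 stayed under the filter on all arrays. MHC class II genes had 4 of 7 above 0 (median 0.24, or 0.14 without labelled double knockout replicate 2 or Itgb1 knockout replicate 4) and chemokine ligand genes 11 of 18 (median 0.20). The chemokine median was near 0 without labelled double knockout replicate 2 (0.0090) or 6 (0.0045), 0.05 without Itgb1 knockout replicate 3 and 0.31 without labelled double knockout replicate 4. Adipocyte markers had 0 of 8 above 0 (median −0.24), with means of −0.70 to 0.20 against −0.23 to 0.29, while Adipoq stayed under the filter on all arrays. Integrin-associated membrane proteins had 7 of 13 above 0 (median 0.05, from 0.02 to 0.16 with single tumours left out), and the tetraspanin gene Cd9, named after its values were seen, differed by −0.24 (adjusted p = 0.242) with all 6 tumours below. Matrix proteases and their inhibitors had 16 of 21 above 0 (median 0.22, or 0.34 without Itgb1 knockout replicate 1 and 0.33 without labelled double knockout replicate 4), with the urokinase gene Plau at 0.45 (adjusted p = 0.274) and above in all 6 tumours. Lists of ATF4 and serine synthesis genes (10 of 15 above 0, median 0.13), cholesterol synthesis (9 of 14, 0.02), platelets (5 of 6, 0.06) and B and plasma cells (2 of 3, 0.13) held no gene past the threshold. With single tumours left out these medians ran from 0.03 to 0.22, from −0.07 to 0.17, from −0.00 to 0.11 and from 0.07 to 0.25.

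**Figure D3:**
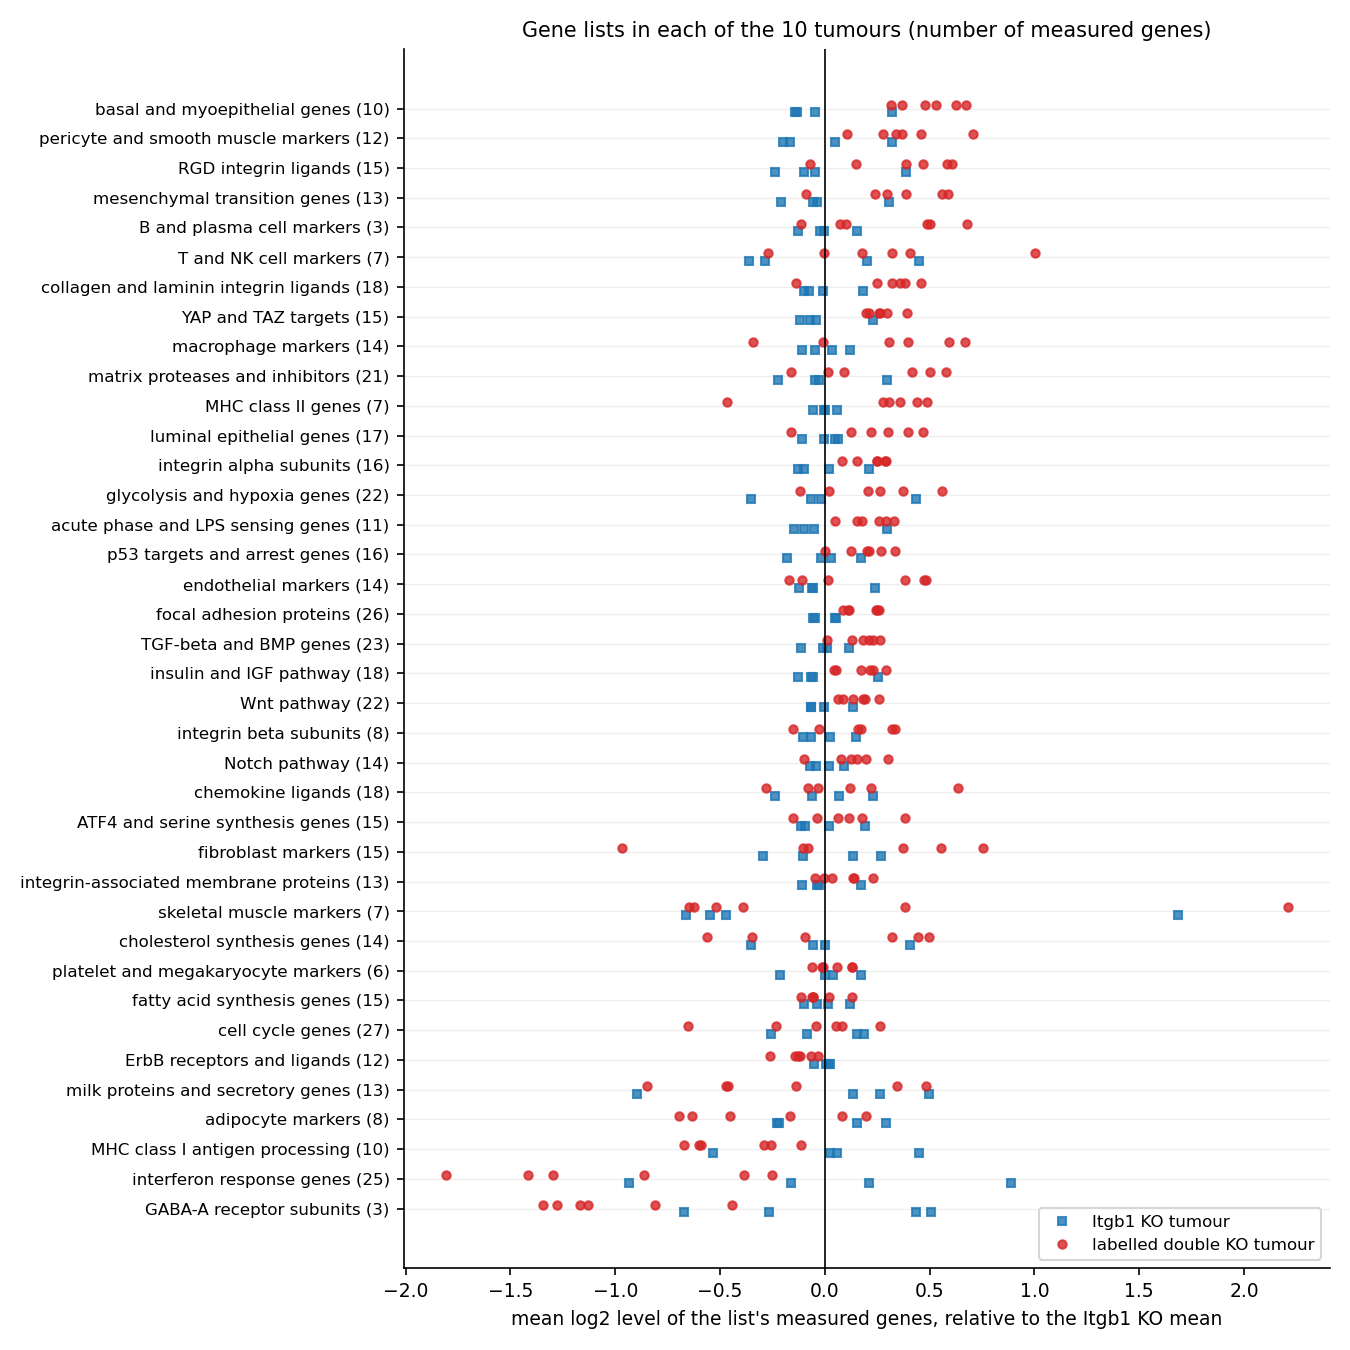
Mean log2 level of each list (horizontal axis, relative to the Itgb1 knockout mean) in each of the 10 tumours, 1 line of points per list. Interferon response genes run from −1.81 to −0.25 in the tumours labelled double knockout and from −0.94 to 0.89 in the Itgb1 knockouts. Only for focal adhesion proteins do all 6 of the former lie above the latter.

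Placed in their order along chromosome 11, where Itgb3 lies, the genes on the far side of Itgb3 had higher values in the tumours labelled double knockout. Gene order is from RefSeq (GRCm38.p6). Of the 225 measured genes after Itgb3, 178 had a difference above 0 (79.1%), their median was 0.25, and 96 had an unadjusted p under 0.05 on the higher side (42.7%, against 7.27% of all genes) and 5 on the lower. The 951 genes before Itgb3 had a median of −0.00, with 54 higher and 50 lower at that p. A running median of 41 genes ran from −0.16 to 0.17 before Itgb3 and from 0.12 to 0.35 after it, so stretches before Itgb3 also lay off 0 in either direction. At Itgb3 itself the change was abrupt: the 100 genes just before it had a median of −0.01 (6 higher and 6 lower), and the 100 just after it 0.23 (41 higher and 3 lower).

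The size was not equal in all tumours. The mean of the 225 genes, relative to the Itgb1 knockouts, was 0.32, 0.39, 0.16, 0.27, 0.12 and 0.19 in labelled double knockout replicates 1 to 6 and 0.13, −0.12, −0.03 and 0.02 in Itgb1 knockout replicates 1 to 4. Replicate 5 of the former thus lay just below replicate 1 of the latter, and the other 5 lay above all 4. In tumours with intact integrins the mean ran from −0.11 to 0.02, and in the Itgb3 knockouts from −0.07 to −0.01. Prkca, Dcaf7, Itgb4, Smurf2 and Fasn, named above, are among these genes, and their nearness to Itgb3 and any part of it in their differences was not tested. This region and the chromosomes below were picked after the values were seen, so the counts are descriptions.

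**Figure D4:**
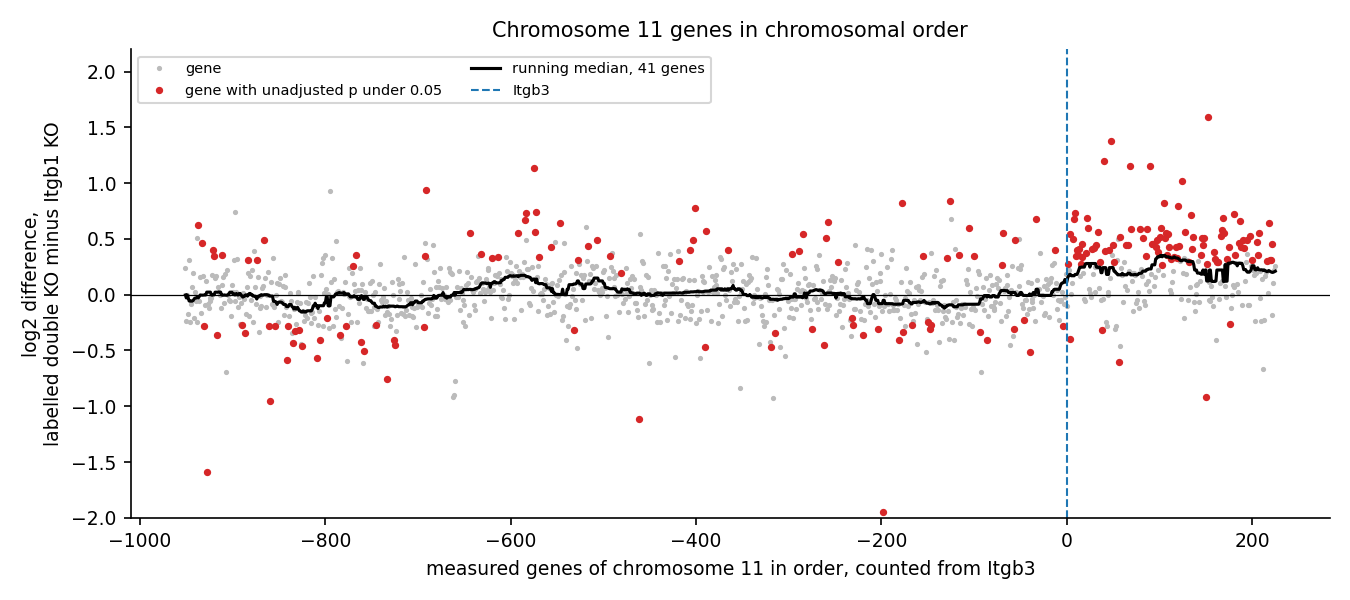
Log2 difference (vertical axis) of the measured genes of chromosome 11 in their order, counted from Itgb3 (horizontal axis), with a running median of 41 genes; red points had an unadjusted p under 0.05. The running median lies between −0.16 and 0.17 before Itgb3 and between 0.12 and 0.35 after it.

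Whole chromosomes showed smaller differences. The 499 genes of chromosome 13 had a median of −0.13, with 97 lower (19.4%) and 13 higher at an unadjusted p under 0.05, and the 485 of chromosome 14 a median of −0.13 with 78 lower (16.1%) and 20 higher. The chromosome 13 mean ran from −0.22 to 0.02 in the tumours labelled double knockout and from −0.10 to 0.06 in the Itgb1 knockouts. It also reached low values in the Itgb3 knockouts (−0.21 to −0.01), and ran from −0.05 to 0.01 in intact tumours. Cdkal1, Elmo1, Slc38a9 and Erap1 lie on chromosome 13, as does Slc22a23, which had a higher value. Chromosome 15, which holds Snord123 and Krt8, had a median of 0.12 over 597 genes, with 101 higher (16.9%) and 13 lower. Single tumours weighed on these values. The mean of chromosome 14 was −0.34 in labelled double knockout replicate 2 and between −0.20 and 0.02 in the other 5, and without that tumour its median was −0.08. On chromosome 15 the mean was 0.25 and 0.31 in labelled double knockout replicates 1 and 2 and at most 0.11 in the other 4. The part of such regional differences in those of single genes was not tested.

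**Figure D5:**
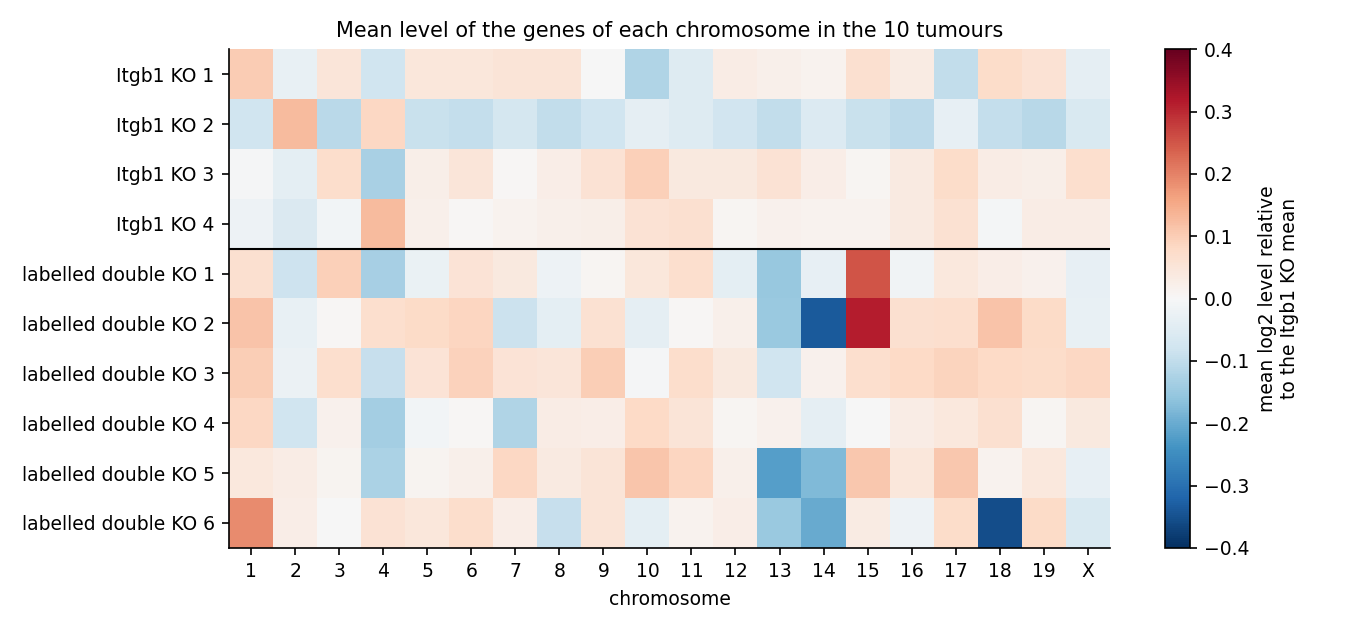
Mean log2 level of the measured genes of each chromosome (columns) in each of the 10 tumours (rows), as a colour scale relative to the Itgb1 knockout mean, red for higher and blue for lower. Labelled double knockout replicate 2 stands apart at −0.34 on chromosome 14 and replicate 6 at −0.35 on chromosome 18, and most tumours with that label lie below 0 on chromosome 13.

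The labels allow the addition of floxed Itgb3 to be followed on a second background, since the Itgb3 knockouts and the tumours with intact integrins share no array with the groups compared above. The Itgb3 transcript itself differed by −1.12 between the Itgb3 knockouts and the intact tumours, but by −0.10 between the groups compared above. Its background difference was 1.01 (limma adjusted p = 0.271). The difference between the 2 differences passed for no gene in limma (smallest adjusted p = 0.0963), with 1777 genes at an unadjusted p under 0.05 (12.5%). In the Itgb3 knockouts minus intact tumours 0 genes passed as well, with 874 at that p (6.14%). Across genes both differences had a Pearson correlation of −0.175 and a Spearman correlation of −0.2, a description over 14231 genes that are not independent. Of the 1034 genes higher in the tumours labelled double knockout at that p, 281 (27.2%) had the same sign in the Itgb3 knockouts, of the 710 lower ones 321 (45.2%), and of all genes 42.3%.

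Snord123 had a background difference of 1.86 and Samd5 one of 2.64, both with an adjusted p of 0.0963. Small RNAs and predicted genes left out, the smallest p of that test belonged to the homeobox gene Lhx2 (−0.99), the neuroligin gene Nlgn2 (0.95), the tumour necrosis factor receptor gene Tnfrsf1b (1.25), the cytolinker gene Plec (0.77) and Serpini1 (−4.41), all with an adjusted p of 0.0963. Tnfrsf1b differed by 0.77 between the tumours labelled double knockout and the Itgb1 knockouts, with all 6 above, and by −0.48 between the Itgb3 knockouts and the intact tumours. For Serpini1 these differences were −2.70 and 1.71. Without Itgb1 knockout replicate 1 the count was 2, and without labelled double knockout replicate 5 it was 1.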

How the data were processed

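RNA of 19 tumours was measured on a whole-transcript Affymetrix array, 10 of them in the groups compared. The authors deposited a table of log2 intensities with 1 normalized value for each probe set on each array, made with Affymetrix Expression Console, per the submitters' processing notes. The sources used here do not give its version, background correction or summarization. Values ran from 0.542 to 13.7. An array has no read depth, so the number of arrays limits the precision.

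Of 41345 probe sets, 23521 had 1 gene symbol, 1814 several and 16010 none here. Probe sets with 1 symbol and a value of at least 4.38, the table median, on at least 4 arrays were kept, and per gene the one with the highest mean, which left 14231 genes. The gene table (GRCm38.p6) held 14209 of these symbols. It served only for chromosomes and gene order, since no source used here gives the build of the array.

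One limma 3.58.1 fit (R 4.3.3, lmFit and eBayes) held all 19 arrays with 1 mean per group and no covariate. Tests were two-sided. The code was checked on simulated data. Named genes were the 8 with the smallest p in each direction, small RNAs and predicted genes left out, then Itgb1, Itgb3 and Erbb2, up to 4 members per list with the smallest p in the direction of its median, and the 5 with the smallest p for the difference between backgrounds. Exceptions are marked as named after their values were seen. The members, the 38 lists and the rules were chosen with earlier results of these data known. Replicate numbers follow accession order and only name a tumour. Alternatives covered filter, scaling, probe set choice, fit, covariates and leaving out each tumour.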

Additional observations from a re-analysis of the deposited data

Results flagged for a closer look

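For a part of the named genes, 48 groups of 4 to 6 tumours were examined for a tumour far from the others of its group. These were the genes with the smallest p in each direction and for the difference between backgrounds, with Snord123, Itgb1, Itgb3 and Erbb2. Genes named only as members of a list were not examined. Chance flags about 1 in 20 groups (2.4 expected), and 2 were found. Gabra4 was 4.94 in labelled double knockout replicate 2, while the nearest of the other 5 tumours was at 3.20, a gap of 0.733 of the range of the group. Cdkal1 was 8.33 in Itgb1 knockout replicate 4, while the nearest of the other 3 was at 8.23, a gap of 0.896 of a narrow range.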

How the results depend on the processing

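The count of 3 genes became 7 in a fit on the compared groups alone, where Gabra4 (adjusted p = 0.0522) and Snord123 (0.0795) no longer passed, 33 (26 higher) with array weights and 0 with fibroblast and adipocyte covariates. With 0 genes there, Gabra4, Samd5 and Snord123 each had an adjusted p of 0.133. It ran from 0 to 24 with single tumours left out. The count for the difference between backgrounds, 0, became 3 with array weights and ran from 0 to 2 with single tumours left out. In these leave-one-out fits the Itgb3 difference ran from −0.22 to 0.15 (0.15, reversed, without Itgb1 knockout replicate 2) and the Itgb1 difference from −0.56 (without labelled double knockout replicate 5) to −0.29. Gabrd was 0.0043 with values under the filter raised to it and Erbb2 −0.014 without Itgb1 knockout replicate 4, both reversed. Erbb2 otherwise reached up to 0.26 with a tumour left out. Cidec was 0.020 with the covariates, also reversed, but the adipocyte covariate is a mean that includes Cidec, so this value is no separate check. The cause of these changes was not tested. The median of the interferon list was −0.73 and that of MHC class I genes −0.27 with the covariates. Arrays centred on their medians moved the median of all genes to −0.04, that of chromosome 15 to 0.08 and that of the genes after Itgb3 to 0.20. The chromosome values were recomputed as an addition after seeing the data. No paired analysis was possible because the labels give the groups no shared replicate numbers.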

Other observations

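Skeletal muscle genes were high in single tumours of both groups: relative to the Itgb1 knockouts, the mean of 7 measured markers was 2.21 in labelled double knockout replicate 2, 0.38 in replicate 4 and 1.68 in Itgb1 knockout replicate 1, and between −0.66 and −0.39 in the other 7 of the 10 tumours. The 355 measured genes of chromosome 18 had a mean of −0.35 in labelled double knockout replicate 6 and between 0.01 and 0.11 in the other 5 tumours with that label.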
